A study of Homo sapiens with 4 samples.

Results

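The genes of the short arm of chromosome 12 were examined in H1299 cells, an established human non-small cell lung cancer line, with and without an intact TTC28 gene. A gene was a member when its row was protein coding, lay on chromosome 12 with a start below 35000000 (hg38), and reached 1 FPKM in at least 2 libraries; FPKM counts fragments relative to both the length of a gene and the size of a library. A set of names and name prefixes, such as GAPDH and genes starting with MRP, was left out by the rule. This gave 112 members among 58735 rows, out of 291 protein-coding rows of the arm. Of the other protein-coding rows, 23 were left out by name and 156 were below the FPKM limit. The arm was chosen because of its values in the comparison of knockout (KO) with wild type (WT), so the direction and number of its changes are given as a description and support nothing.

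The series holds 2 WT libraries and 2 libraries of cells in which TTC28 was targeted with CRISPR/Cas9. All 4 came from untreated cells grown in the same medium with serum, and total RNA was sequenced after a TruSeq library preparation. The labels do not say whether the KO cells were 1 clone or a pool, or whether the replicates were separate cultures. The p-values therefore measure only the spread between these libraries, which may be technical.

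Short arm genes share a chromosome and no single function. Among them are CDKN1B, which encodes the cyclin-dependent kinase inhibitor p27, and CHD4, the ATPase of a nucleosome remodelling complex. The arm also encodes the glucose transporter SLC2A3, the branched-chain aminotransferase BCAT1 and the tumour necrosis factor receptor TNFRSF1A. Genes with neighbouring starts on opposite strands can share 1 stretch of promoter DNA, and several short arm genes are arranged in this way.

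The libraries held 25120500 to 28885443 counts. TTC28 itself had 4.88 and 5.44 FPKM in WT replicates 1 and 2, and 2.96 and 2.99 FPKM in KO replicates 1 and 2. Its count covers the whole gene and does not examine the edited site. Mitochondrially encoded genes took 6.07% and 5.87% of the counts in WT and 8.61% and 10.2% in KO. With these genes taken out of the library totals, 83 members were lower and 9 higher, with a median log2 fold change of -0.45. Of 6 epithelial markers, 3 (KRT8, KRT18 and KRT7) reached 1 FPKM in any library, while EPCAM, KRT19 and CDH1 did not. KRT7 had 1.94 and 2.02 FPKM in WT and 0.745 and 0.57 in KO. All 4 mesenchymal markers (VIM, CDH2, ZEB1 and FN1) were above 1 FPKM in every library, and FN1 had 3.08 and 3.38 FPKM in WT and 1.19 and 1.35 in KO. None of the 6 lung lineage markers reached 1 FPKM, and SFTPC and SFTPA1 were at 0. None of the 5 blood, 4 endothelial and 5 fibroblast markers reached 1 FPKM in any library.

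Most short arm members were lower in KO. Of the 112, 82 (73.2%) were lower and 9 (8.04%) higher at an adjusted p under 0.05 in edgeR's quasi-likelihood test, and 21 did not pass. Over all 13079 tested genes, 25.2% were lower and 25.1% higher. The median log2 fold change of the members was -0.44, a KO level of 0.738 times the WT level, and the median over all tested genes was 0. The quartiles of the members were -0.63 and -0.19, against -0.27 and 0.27 for all tested genes. Only 4 members were at least 2-fold lower and 2 at least 2-fold higher. In bulk RNA, fewer cells with a transcript and less of it per cell cannot be told apart, and the DNA of the arm was not analysed here.

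The 4 libraries gave the same picture when set against each other in pairs. The median member difference was -0.451 from WT replicate 1 to KO replicate 1 and -0.388 to KO replicate 2. From WT replicate 2 it was -0.427 and -0.402 on the log2 scale. Within WT it was -0.016 and within KO 0.046. The FPKM of the groups did not overlap, with KO lower, in 90 members (80.4%, against 37.9% of all tested genes). They did not overlap with KO higher in 14 members (12.5%, against 37.6%).

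Members took 1.07% and 1.08% of the scaled counts in the WT libraries and 0.819% and 0.827% in the KO libraries. The mean was 1.08% ± 0.00508 (SD, n = 2) in WT and 0.823% ± 0.00596 (SD, n = 2) in KO, a ratio of 0.765. The groups did not overlap, but the arm was chosen because of its values in this comparison. The exact permutation test, two-sided, gave p = 0.33, the smallest that 2 against 2 libraries allow. It describes the chosen arm and supports nothing. No single gene carried the share: YBX3 held 6.15% of the member counts, PTMS 5.45% and PHB2 4.97%, and the 10 most counted members together held 40.9%.

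The median member was below 0 in every 5-Mb window of the arm, and 97 of the 112 members (86.6%, against 50% of all tested genes) were below 0. The window medians, from the telomere inward, were -0.46 (17 genes), -0.29 (33), -0.44 (21), -0.45 (7), -0.50 (7), -0.45 (16) and -0.47 (11). The last 35 members in order, from AEBP2 at 19404045 to ALG10 at 34022281, all had log2 fold changes below 0. Just across the limit of the rule the sign turned. The next 7 protein-coding genes past the FPKM limit, from ALG10B at 38316578 to GXYLT1 at 42081845, were all above 0. All 5 genes between 35 and 40 Mb were higher in KO, with a median of 0.33. Over the 462 protein-coding genes of the rest of the chromosome, 17.5% were lower and 42.0% higher, with a median of 0.12. Falls were not limited to the short arm. The 9 genes between 90 and 95 Mb were all below 0, with a median of -0.31. The window before it (7 genes, -0.37) and the last window of the chromosome (21 genes, -0.20) also had medians below 0.

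**Figure D1:**
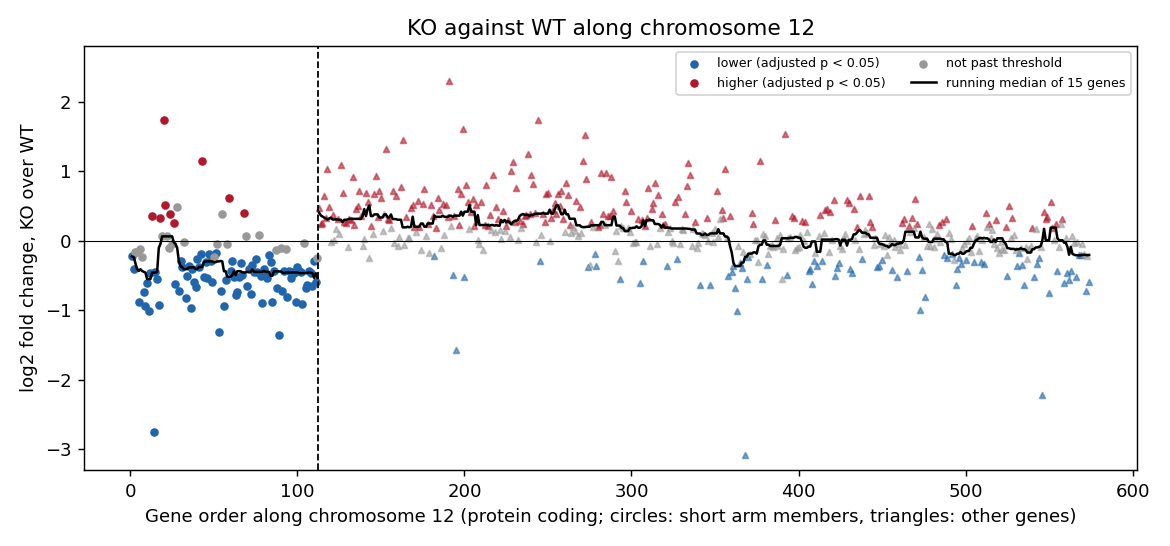
Log2 fold change of KO over WT (vertical axis) for protein-coding genes of chromosome 12 in order along the chromosome (horizontal axis); circles are the 112 short arm members, triangles the 462 genes of the rest of the chromosome, colours the edgeR call and the line a running median of 15 genes, computed separately on each side of the dashed limit. The members lie mostly below 0 with a median of -0.44, and the 5 genes between 35 and 40 Mb are all above 0. Farther along, the 9 genes between 90 and 95 Mb are all below 0.

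The genes on either side of the position limit can be named. YARS2, the mitochondrial tyrosyl-tRNA synthetase and the next to last member, had 31.5 and 30.6 FPKM in WT and 21.2 and 19.7 in KO. ALG10, the last member and a glucosyltransferase of protein N-glycosylation, had 2.3 and 2.69 FPKM in WT and 1.8 and 2.43 in KO, and its groups overlapped. Just outside, its close copy ALG10B had 3.96 and 4.32 FPKM in WT and 5.34 and 6.14 in KO. Reads of ALG10 and ALG10B can be assigned to either copy, so both values are uncertain, as are those of DDX11, EIF2S3B and TAS2R14, which have near copies elsewhere. CPNE8 (0.23) and KIF21A (0.26), the next genes outside, were also higher on the log2 scale.

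The members of a short stretch of the arm stood apart from this pattern. From CD9 at 6199715 to ING4 at 6650280, none of 9 members was lower and 5 were higher, with a median of 0.26. This holds for the members alone: MRPL51 (-0.65) and GAPDH (-0.43), which start within the stretch and were left out by name, were both lower. The stretch was chosen after its values were seen. Outside it, 82 of 103 members were lower and 4 higher, with a median of -0.45.

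The FPKM limit of the rule also has its near cases. Of the members, 106 reached 1 FPKM in all 4 libraries, 5 passed through the WT libraries alone and 1 through the KO libraries alone. Those that reached the limit in no library of the other group had to differ. CLEC2D, a C-type lectin, did not: with 1.31 and 1.1 FPKM in WT and 0.846 and 1.2 in KO, its groups overlapped. The member that passed through KO alone was PIANP, with 0.982 and 0.753 FPKM in WT and 1.19 and 1.23 in KO. Among those through WT alone were PARP11, an ADP-ribosyltransferase with 1.27 and 1.5 FPKM in WT and 0.168 and 0.244 in KO, and MGST1, a microsomal glutathione transferase with 1.26 and 1.19 against 0.916 and 0.875. PARP11 had the lowest log2 fold change of all members, -2.76 ± 0.211 (SE). Just outside the limit, TEX52 reached 1.13 FPKM in 1 library only.

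Members were grouped by role in 7 lists. The counts of each list stand beside 25.2% lower and 25.1% higher over all tested genes. The first, of cell cycle, RAS and kinase signalling genes, held 17 members, of which 13 were lower, none higher and 4 not past the threshold, with a median of -0.44. CDKN1B had 26.5 and 25.8 FPKM in WT and 15.2 and 15.1 in KO, a log2 fold change of -0.78 ± 0.0686 (SE; edgeR adjusted p = 1.21e-06). CDCA3, a trigger of entry into mitosis, had 15.5 and 14.5 FPKM in WT and 8.5 and 8.42 in KO. The KO libraries of both genes lay well below the WT libraries. ITFG2, a subunit of a complex that restrains mTORC1, had 4.67 and 5.06 FPKM in WT against 2.57 and 2.51. ITFG2 shares 18.7% of its exonic bases with genes on the opposite strand. RASSF8, of the RAS association domain family, had 6.17 and 6.31 against 3.7 and 4.08. The kinase gene WNK1, a regulator of ion transport, fell from 30.6 and 33.6 to 23.7 and 24.5 FPKM.

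NCAPD2, a subunit of the condensin that compacts mitotic chromosomes, did not pass. It had 72.2 and 77.8 FPKM in WT and 70.4 and 68.8 in KO (-0.10 ± 0.0642, SE), and passed as lower with total-count scaling (-0.17) and on the TPM scale (-0.27). PIANP, which is not known as a signalling kinase or cell cycle gene although the list holds it, had a log2 fold change of 0.48 and an edgeR adjusted p of 0.0651.

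Of the 7 members in the DNA repair and replication list, 4 were lower, 1 higher and 2 not past the threshold. RHNO1, which works with the 9-1-1 checkpoint clamp, had 41.3 and 42.1 FPKM in WT and 20.6 in both KO libraries, 2.02-fold lower in KO. RECQL, a DNA helicase, had 20.7 and 21.8 against 16.1 and 15.7. RECQL shares 41.45% of its exonic bases with PYROXD1 on the opposite strand. RAD52, a recombination mediator, had 5.58 and 5.24 FPKM in WT and 4.7 and 4.98 in KO and did not pass (-0.16 ± 0.0916, SE), although it was called lower on the TPM scale (-0.30). The higher gene in this list was ATF7IP, better known as a partner of the histone methyltransferase SETDB1 than as a repair gene. PARP11, described above, is counted in this list too, although it is not known mainly for DNA repair.

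The chromatin and transcription list had 18 members, with 15 lower, 2 higher (ING4 and IFFO1) and 1 not past the threshold, and a median of -0.52. BHLHE41, a repressor in the circadian clock, had 5.07 and 5.25 FPKM in WT and 2.03 and 2.0 in KO, 2.55-fold lower, with a log2 fold change of -1.35 ± 0.107 (SE). It had the lowest fold change among the members with at least 5 FPKM in a group. SINHCAF, a subunit of SIN3 corepressor complexes, had 21.9 and 22.7 FPKM in WT and 13.4 and 14.4 in KO. MED21, a Mediator subunit, had 13.2 and 13.4 against 7.32 and 7.9, and the zinc finger gene ZNF384 had 10.9 and 11.5 against 7.33 and 7.14. ZNF384 shares 31.87% of its exonic bases with a gene on the opposite strand. ETV6, an ETS family repressor, had 3.12 and 3.37 FPKM in WT and 2.22 and 2.15 in KO. CHD4 did not pass, with 3.52 and 2.75 FPKM in WT and 3.09 and 2.97 in KO, and its groups overlapped. Its value is uncertain, because 53.46% of its exonic bases are shared with other genes.

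All but 1 of the 10 members in the RNA processing and translation list were lower, with a median of -0.53. The lower members include AMN1, C12orf57 and C12orf4, whose place in this list is not sure. MAGOHB, a core protein of the exon junction complex, had 8.92 and 8.14 FPKM in WT and 3.47 and 3.36 in KO, 2.49-fold lower (-1.32 ± 0.0888, SE; edgeR adjusted p = 1.25e-07). Its copy MAGOH on chromosome 1 is similar in sequence, so that reads could be split between them. YBX3, a cold shock domain protein that binds RNA, had 84.1 and 85.3 FPKM in WT and 49.7 and 52.6 in KO. CAPRIN2, an RNA-binding protein, had 14.7 and 12.9 against 6.78 and 7.9. DCP1B, a decapping cofactor, had 3.36 and 3.51 FPKM in WT and 3.13 and 2.68 in KO, and did not pass the threshold (-0.24 ± 0.11, SE).

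Genes of membrane traffic and organelles followed the same course, with 17 of 20 lower, none higher and a median of -0.41. PHB2, a prohibitin of the inner mitochondrial membrane, had 232 FPKM in both WT libraries and 154 and 137 in KO. PHB2 shares 11.8% of its exonic bases with other genes, mostly with SCARNA12 on the same strand. M6PR, the cation-dependent mannose 6-phosphate receptor that sorts lysosomal enzymes, had 37.5 and 37.3 FPKM in WT and 25.5 and 23.8 in KO. M6PR shares 29.26% of its exonic bases with PHC1 on the opposite strand. CCDC91, a Golgi accessory protein, had 6.62 and 6.28 against 3.38 and 3.59, and DENND5B, an exchange factor for RAB GTPases, had 9.13 and 9.63 against 5.68 and 6.39. DNM1L, the dynamin-related GTPase of mitochondrial fission, fell less, from 18.6 and 18.5 to 14.6 and 15.5 FPKM. VAMP1, PLEKHA5 and TM7SF3 did not pass, at 0.06, 0.08 and -0.12 on the log2 scale.

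Metabolic and transport genes were lower in 16 of 19 members, with 1 higher and a median of -0.47. BCAT1, the cytosolic branched-chain aminotransferase, had 7.51 and 7.7 FPKM in WT and 3.98 and 4.22 in KO, 1.85-fold lower (-0.89 ± 0.0675, SE). SLC2A3 had 19.0 and 19.5 against 12.9 and 13.7. This list also holds genes of protein folding and turnover. FKBP4, a cochaperone of HSP90, had 31.7 and 32.3 FPKM in WT and 19.5 and 19.0 in KO. COPS7A, of the COP9 signalosome, had 33.9 and 33.8 against 20.2 and 20.8, and FBXL14, an F-box protein, had 18 and 20.8 against 11.2 and 9.85. TAPBPL, which edits peptides on class I molecules and is no metabolic enzyme, was the higher gene, with 1.27 and 1.14 FPKM in WT and 1.86 and 1.57 in KO. Its rise missed the threshold in several refits, named below.

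Receptors, ligands and cell surface genes were the list with the smallest shift. Of 13 members, 3 were lower, 4 higher and 6 not past the threshold, with a median of -0.05. EMP1, an epithelial membrane protein, had 27.9 and 29.8 FPKM in WT and 20.3 and 20.5 in KO. APOLD1, an apolipoprotein L domain protein, had 2.44 and 2.32 against 1.4 and 1.44. APOLD1 shares 25.42% of its exonic bases with DDX47 on the same strand. TNFRSF1A had 90.8 and 93.7 FPKM in WT and 98.0 and 94.9 in KO (0.07 ± 0.0612, SE; edgeR adjusted p = 0.38). LRP6, a coreceptor of WNT ligands, had 4.56 and 4.97 against 4.52 and 4.7, and its groups overlapped. P3H3, an enzyme that modifies collagen, and ITPR2, a calcium channel of the endoplasmic reticulum, are counted in this list although neither is a surface receptor.

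**Figure D2:**
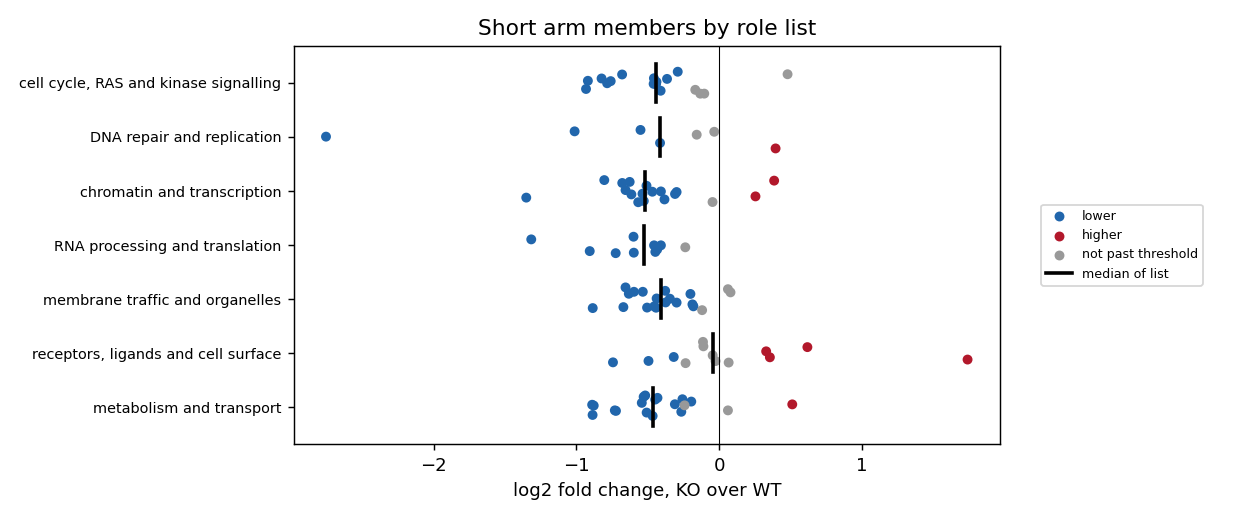
Log2 fold change of KO over WT (horizontal axis) for the short arm members in each of 7 role lists (vertical axis); each point is a gene, its colour the edgeR call, and the black bar the list's median. The medians lie between -0.53 and -0.41, except for receptors, ligands and cell surface genes at -0.05, and SCNN1A is the point at 1.74.

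Of the 8 members in no list, 5 were lower, 1 higher and 2 not past the threshold. LRRC23, a leucine-rich repeat protein, had 6.14 and 5.11 FPKM in WT and 3.15 and 2.57 in KO. LRRC23 shares 18.37% of its exonic bases with RPL13P5 on the same strand. SMIM10L1, a small membrane protein, had 12 and 11.4 against 5.99 and 6.25. Among the listed members, BORCS5 and FGFR1OP2 stood at the median of all members, both at -0.44. BORCS5, of a lysosome positioning complex, is in the membrane traffic and organelles list. FGFR1OP2, of the STRIPAK phosphatase complex, is in the cell cycle, RAS and kinase signalling list.

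The 9 members that were higher in KO began with SCNN1A, the alpha subunit of the epithelial sodium channel. SCNN1A had 1.03 and 1.01 FPKM in WT and 3.29 and 3.5 in KO, 3.34-fold higher (1.74 ± 0.115, SE; edgeR adjusted p = 1.03e-07). CD163L1, a scavenger receptor, had 2.37 and 2.15 FPKM in WT and 5.19 and 4.77 in KO, 2.21-fold higher. MANSC1, a membrane protein with a MANSC domain, had 1.59 and 1.79 against 2.4 and 2.8. These 3 were higher under every setting tried that held them.

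The other rises were smaller and depended on the scale. ATF7IP had 5.57 and 5.77 FPKM in WT and 6.98 and 7.91 in KO. The tetraspanin TSPAN9 had 4.73 and 4.66 against 6.32 and 5.65, and the tetraspanin CD9 had 41.3 and 39.2 against 50 and 50.9. ING4, a reader of methylated histone H3, had 10.6 and 9.9 FPKM in WT and 12 and 12.5 in KO (0.26 ± 0.0842, SE). On a TPM scale, where each library sums to the same total, the rises of TSPAN9, CD9, TAPBPL, IFFO1, ING4 and ATF7IP no longer passed, leaving 3 higher members. The median over all tested genes lay at -0.16 on that scale. The rise of ING4 also missed the threshold with total-count scaling (0.19), with DESeq2 (0.25), with all genes of at least 1 count in 2 libraries (0.23), without WT replicate 2 (0.20) and without KO replicate 2 (0.22). The rise of TAPBPL missed it with DESeq2, with limma on FPKM at each pseudocount, with all genes of at least 1 count in 2 libraries, and without WT replicate 1, WT replicate 2 or KO replicate 1. That of IFFO1 missed it without WT replicate 2 and without KO replicate 1.

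**Figure D3:**
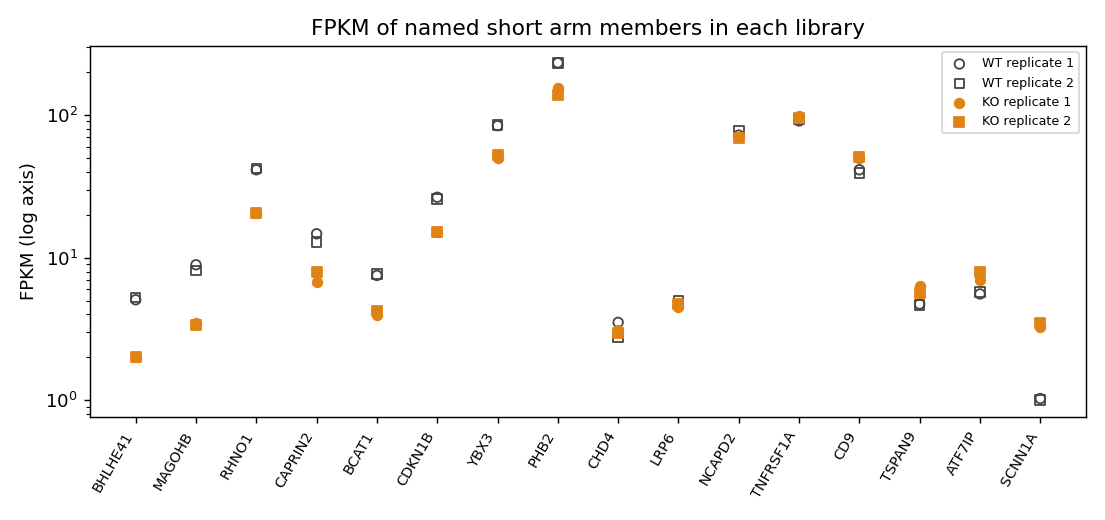
FPKM on a log axis (vertical) of named short arm members (horizontal axis) in each of the 4 libraries; open symbols are WT, filled symbols KO, circles replicate 1 and squares replicate 2. The KO symbols lie below the WT symbols from BHLHE41 to PHB2, near them from CHD4 to TNFRSF1A, and above them from CD9 to SCNN1A.

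Several members start close to a neighbour on the opposite strand and run away from it. There were 7 such pairs with starts within 1000 bases, and both genes were lower in 5 of them. As 73.2% of all members were lower, pairs with both lower were likely whatever the arrangement of the genes. In RECQL and GOLT1B, the latter a Golgi transport protein, the log2 fold changes were -0.41 and -0.50. In CDCA3 and USP5, the latter a deubiquitinase, they were -0.82 and -0.51, and in INTS13, of the Integrator complex, and FGFR1OP2 they were -0.72 and -0.44. In EPS8 and STRAP they were -0.35 and -0.46. RAD52 and ERC1 both missed the threshold. In the last pair, TAS2R14 and SMIM10L1, the 5′ ends overlap, and the log2 fold changes were of opposite sign, 0.39 (not past the threshold) and -0.93.

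The DNA between the starts of 3 of these pairs is shown because both genes of each pair were lower, and the DNA before the starts of ATF7IP and ING4 because these were higher. The sequences are from RefSeq's promoter table (GRCh38.p14), 5′ to 3′, in lower case, with CCAAT or its complement ATTGG and GGGCGG or its complement CCGCCC in capitals. The stretch of RECQL and GOLT1B is chr12:21501670-21501780, that of CDCA3 and USP5 chr12:6852067-6852127 and that of INTS13 and FGFR1OP2 chr12:26938327-26938382, all on the plus strand. ATF7IP is chr12:14365504-14365631 on the plus strand and ING4 is chr12:6663149-6663259 on the minus strand.
RECQL and GOLT1B: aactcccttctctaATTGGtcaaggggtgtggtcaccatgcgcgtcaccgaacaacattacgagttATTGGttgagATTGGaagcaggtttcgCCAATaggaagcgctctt
CDCA3 and USP5: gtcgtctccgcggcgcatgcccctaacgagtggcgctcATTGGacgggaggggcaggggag
INTS13 and FGFR1OP2: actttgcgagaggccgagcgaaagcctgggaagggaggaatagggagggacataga
ATF7IP: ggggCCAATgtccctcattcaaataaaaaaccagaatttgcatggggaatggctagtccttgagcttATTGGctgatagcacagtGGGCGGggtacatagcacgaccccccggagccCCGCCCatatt
ING4: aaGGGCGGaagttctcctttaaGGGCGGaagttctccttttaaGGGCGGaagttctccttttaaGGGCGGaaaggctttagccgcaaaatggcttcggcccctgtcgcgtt

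The stretch of RECQL and GOLT1B holds 4 CCAAT letters on either strand, that of CDCA3 and USP5 holds 1, and that of INTS13 and FGFR1OP2 holds neither motif. ATF7IP holds 2 of each motif and ING4 holds 4 of GGGCGG. Each printed stretch is the longest part of its window outside annotated exons. It is shorter than the 250 bases counted next, so the counts are not alike. Promoters were found for 84 of the 112 members. In the 250 bases before the start, read on both strands, CCAAT stood in 32.1% of them and in 32% of all 34943 promoters, and GGGCGG in 67.9% and 42.5%. CACGTG stood in 2.38% against 6.32%, and TGACGTCA in 2.38% against 1.63%. The 34943 promoters were not limited to genes past the FPKM limit, so they are no matched comparison. The median GC content of these bases was 62.2% for the members and 58% for all promoters. A match describes these letters only.

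Subunits of a complex whose genes lie elsewhere were set beside the short arm subunit. In 14 complexes, 11 short arm subunits were lower, none higher and 3 (NCAPD2, CHD4 and DCP1B) not past the threshold, with a median of -0.48. Of their 100 partners encoded elsewhere, 36 were lower, 20 higher and 44 not past the threshold, with a median of -0.08. Over all tested genes, 25.2% were lower and 25.1% higher. The short arm subunit lay below every tested partner in 9 of the 14, among them DCP1B, which did not pass. Such an order was likely, because the arm was chosen by its values. The difference itself was not tested.

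MAGOHB, at -1.32, lay below its exon junction partners, which ranged from -0.36 (MAGOH) to 0.22 (CASC3). COPS7A, at -0.72, lay below the other COP9 subunits, which ranged from -0.51 (COPS3) to 0.52 (COPS7B). RHNO1, at -1.01, lay below RAD9A, HUS1 and RAD1 of the 9-1-1 clamp and below TOPBP1. These ranged from -0.81 ± 0.168 (SE, HUS1) to 0.23 (TOPBP1). MED21 did not: the Mediator subunit MED10, encoded on chromosome 5, was at -1.44, and the rest ranged up to 0.22. PEX5, the receptor for peroxisomal import, was at -0.19 and lay within its partners, which ranged from -0.46 (PEX7) to 0.35 (PEX2).

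**Figure D4:**
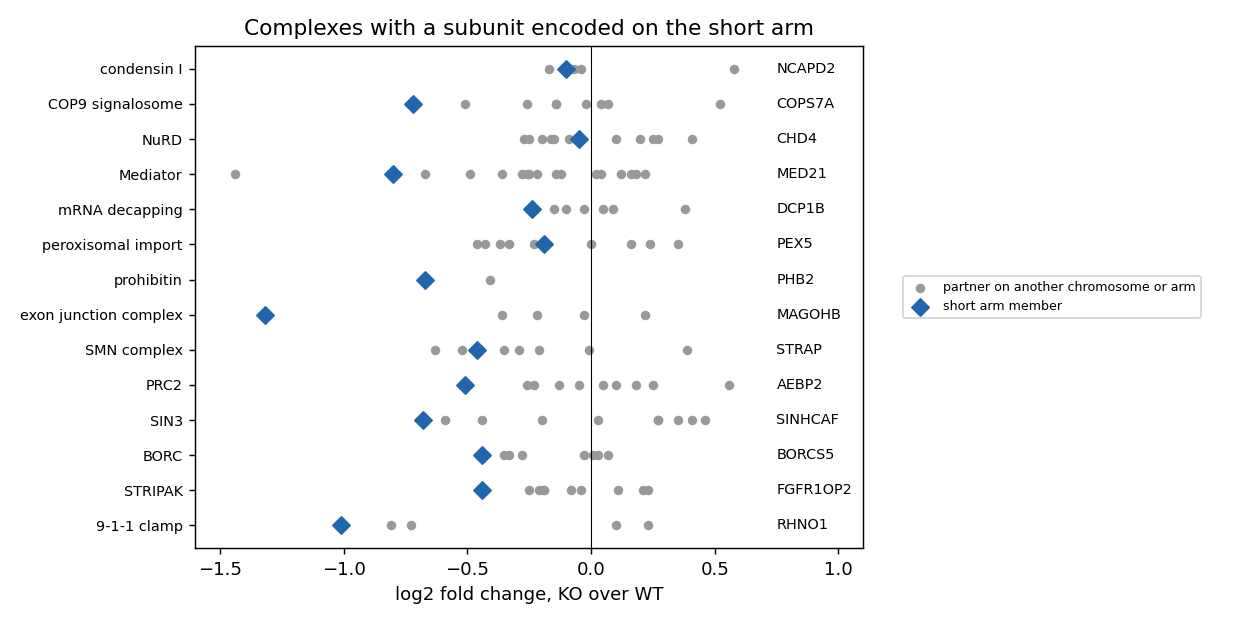
Log2 fold change of KO over WT (horizontal axis) for 14 complexes (vertical axis); diamonds are the subunit encoded on the short arm, named at the right, and grey points its tested partners encoded elsewhere. The diamond is the lowest point in 9 of the 14 rows, and in Mediator the point at -1.44 is MED10.

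Paralogs, related genes from a shared ancestor, gave a second comparison with genes off the arm. Of 40 tested paralogs, 9 were lower, 20 higher and 11 not past the threshold, with a median of 0.18. The shares over all tested genes were 25.2% lower and 25.1% higher. Of the 35 members with such a paralog, 24 were lower, 2 higher and 9 not past the threshold. The member lay below its paralog in 36 of 40 pairs, and the difference was not tested. Such an order was likely, because the arm was chosen by its values and the paralogs were more often higher than lower. CDKN1B fell by 0.78 on the log2 scale while CDKN1A, another kinase inhibitor of the same family, rose by 0.52 from 28.7 to 41.2 FPKM. SLC2A3 was at -0.53 and the glucose transporter SLC2A1 at 0.51, from 29.6 to 42.2 FPKM. BCAT1 was at -0.89 and its mitochondrial counterpart BCAT2 at 0.35. YARS2 and YARS, the mitochondrial and cytosolic enzymes, were both lower, at -0.60 and -0.57.

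Other properties of the genes followed the size of the fall only weakly. Over the 112 members, Spearman's rho with the log2 fold change was -0.20 for the WT level, -0.17 for position, 0.07 for gene length and 0.25 for GC content of the transcript. These describe genes of the same 4 libraries, which are not independent replicates. By WT level, the median log2 fold change was -0.28 in the 38 members of lowest level, -0.44 in the middle 37 and -0.50 in the 37 of highest level. By GC content, it was -0.44 in the lowest 38, -0.46 in the middle 37 and -0.30 in the highest 37, which held 7 of the 9 higher members. Of the 90 members with under 10% of exonic bases shared, 66 were lower and 8 higher, with a median of -0.44. Named members above that limit, not flagged so far, include ALG10 (42.24%), C12orf57 (40.81%) and AMN1 (40.66%). They also include CLEC2D (12.13%), TAPBPL (11.54%), FKBP4 (11.35%) and SINHCAF (10.11%).

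The authors' deposited table gave the same signs for all 112 members. In the authors' deposited table, 70 members were lower and 6 higher at an adjusted p under 0.05, against 20.4% lower and 18.8% higher of all tested genes, with a median log2 fold change of -0.45.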

How the data were processed

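For each library the deposited table gives whole raw counts and the FPKM values that the authors made, per the file headers. The submitters' processing notes name HISAT2 2.0.5 and hg38. The read counter, its use of strand and the annotation were not given in the sources used here. The authors' deposited group means of normalized signal were not used. The authors' deposited log2 fold change and p-value, whose tool is not named in the headers, were compared with the fit made here. Counts of the 13079 genes with at least 1 FPKM in 2 libraries were fitted with edgeR 4.0.16 (R 4.3.3; quasi-likelihood, TMM factors 0.978 to 1.02, no covariates, Benjamini-Hochberg over all tested genes, threshold 0.05). Alternatives used DESeq2 1.42.0 and limma 3.58.1. On simulated data of 13079 genes for this comparison, edgeR recovered 93 of 100 genes changed by 1 on the log2 scale and 82 of 100 changed by 0.5. It also called 7 unchanged genes. The simulation gave every gene the same relative spread and changed far fewer genes than were called here, so recovery in the real data can differ. The coordinates of all 342 arm rows looked up equal those of GENCODE 29, which gave exon overlaps.

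Named genes were the 12 lowest and 12 highest members past the threshold with a group mean of 5 FPKM or more and 1 direction in every pairing (65 lower and 4 higher qualified), 16 genes fixed by name, the median member, members beside the limits, up to 4 of smallest p in each role list, and subunits of the complex lists with their partners' range. SCNN1A, CD163L1, MANSC1, TAPBPL and IFFO1, the paralog examples and the facing pairs were picked with their values known. The members and lists were chosen with earlier results of these data known. A role list names its genes as first written, and some genes that do not match the list's name are pointed out. Some genes that the rule names are not reported here.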

Additional observations from a re-analysis of the deposited data

How the results depend on the processing

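The median log2 fold change of the members, -0.44, moved by more than its spread over pairs of libraries under total-count scaling (-0.50), on the TPM scale (-0.57), with limma on log2(FPKM + 1) (-0.39) or log2(FPKM + 0.5) (-0.41), with every gene of at least 1 count in 2 libraries (-0.34), and without KO replicate 1 (-0.40). With each library left out in turn it ranged from -0.46 to -0.40, the lower count from 72 to 82 and the higher count from 6 to 8; a lone library of a group was assumed to vary like the other group. The higher count, 9, became 3 on the TPM scale, 19 with at least 1 count in 2 libraries and 4 with at least 5 FPKM; the cause was not tested, beyond the other number of genes held by the last 2 settings. DESeq2 called 72 lower and 7 higher, against 21.1% lower and 21.2% higher of all tested genes in that fit. Over all tested genes, 49.9% of calls were higher, against 40.0% with total counts and 25.5% on the TPM scale, and for the members 9.89%, 8.33% and 3.3%. The median over all tested genes was -0.07 with total counts. In every setting that held them, 66 members were lower, and no called member changed sign. The labels' replicate numbers showed no pairing of the libraries, with an r of deviations from the group means of -0.001 for the same number. With 2 libraries per group, the r with the other number (0.001) is its negative by construction and adds nothing. A replicate block gave 83 lower and 10 higher. Totals without mitochondrially encoded genes, added after seeing the data, gave 83 lower and 9 higher. Depth limits the genes below 1 FPKM.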

Other observations

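Noncoding genes of the arm were measured too. Of 51 past the FPKM limit, 17 were lower in KO, 3 higher and 31 not past the threshold in edgeR's test, with a median log2 fold change of -0.28. That is 33.3% lower and 5.88% higher, against 25.2% and 25.1% of all tested genes. LINC00941, a long noncoding RNA, had 1.7 and 1.88 FPKM in WT and 0.728 and 0.901 in KO. AC024940.1, a transcribed pseudogene, had 0.307 and 0.331 FPKM in WT and 1.1 and 1.12 in KO. Both were picked with their values known.

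The 18 protein-coding genes left out by name that passed the FPKM limit included 12 lower, 3 higher and 3 not past the threshold, with a median of -0.46. That is 66.7% lower and 16.7% higher, against 25.2% and 25.1% of all tested genes. The 3 higher were WNT5B, GPR162 and PKP2.

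Of the 156 protein-coding genes of the arm below the FPKM limit, 42 had no count in any library. A fit of every gene with at least 1 count in 2 libraries called 6 of them lower and 12 higher, of 98 with such counts. Over all 26424 genes of that fit, 14.1% were lower and 12.3% higher. CCND2, which encodes cyclin D2, had 38 and 29 counts in WT and 2 in each KO library. From summed counts scaled by library size it was 16.4-fold lower in KO (95% exact interval 6.1 to 61.8, counting error only). LTBR, the lymphotoxin beta receptor, had 18 and 21 counts in WT and 112 and 76 in KO, 4.94-fold higher (3.48 to 7.16). SLCO1B3, an organic anion transporter, had 18 and 21 counts in WT and 98 and 116 in KO, 5.62-fold higher (3.98 to 8.12), and reached 1.34 FPKM in KO replicate 2 alone. SLCO1B3 was chosen after its values were seen.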
